A study of Homo sapiens with 8 samples.

Results

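A set of 9 genes that osteoclasts use to receive signals, fuse and resorb bone was followed in the MEG-01 cell line: TNFRSF11A, OSCAR, NFATC1, MITF, DCSTAMP, OCSTAMP, ATP6V0D2, ACP5 and CTSK. They are 9 of the 60754 genes in the deposited tables, and 8 of the 9 passed the filter on low counts that left 17314 genes; ATP6V0D2 did not. They were chosen as a named set after earlier results of these data had shown DCSTAMP among the largest rises after PMA, so the set was chosen by the counts of PMA against untreated cells, and that difference is described without a test. MEG-01 is an established human megakaryoblast line, so the 4 groups share 1 genetic background, and each group was sequenced as 2 libraries. Cells were untreated, given PMA (phorbol 12-myristate 13-acetate, which activates protein kinase C) at 100 nM, given PMA at 100 nM with Ceefourin 2 (an inhibitor of the transporter ABCC4) at 20 µM, or given Ceefourin 2 alone at a dose that the sources used here do not state. Treated cells were taken at 48 h, and no time is stated for the untreated cells. Nothing in the labels says whether the 2 libraries of a group came from separate cultures, so p-values measure the spread between these libraries, which may be technical. In RNA from whole cultures, fewer cells of a type and less RNA per cell cannot be told apart.

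Osteoclasts are the multinucleated cells that resorb bone, and they form by fusion of precursors of the monocyte lineage. The ligand RANKL binds the receptor RANK, encoded by TNFRSF11A, while OSCAR and related receptors signal through the ITAM adaptors FCER1G and TYROBP; both routes raise calcium and activate NFATC1, the factor regarded as the master regulator of the osteoclast programme. NFATC1 and MITF are known to act on genes for fusion proteins (DCSTAMP, OCSTAMP), a proton pump subunit (ATP6V0D2) and secreted enzymes (ACP5, CTSK). Megakaryocytes also become large and polyploid, but by replicating DNA without division and not by fusion.

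Promoter sequence is shown first for NFATC1 and ACP5, because their windows hold a motif of a factor among the members, and NFAT proteins are known to bind the NFATC1 promoter itself. RefSeq promoter sequence of GRCh38.p14 was matched by symbol for 4 of the 9 genes (TNFRSF11A, NFATC1, MITF and ACP5), which have 10 start sites, and the 250 bases before each start were searched on both strands. Capitals mark the NFAT core GGAAA or its longer form TGGAAA, which reads TTTCCA on the other strand. The first sequence lies at chr18:79395879-79395908 (plus strand), before the first NFATC1 start and inside an exon annotated in GENCODE 29; the second at chr18:79400049-79400273 (plus strand), before the second; and the third at chr19:11578258-11578479 (minus strand), before the third ACP5 start.
NFATC1 start 1: cgggggaggtgtTTTCCAgctttaaaaagg
NFATC1 start 2: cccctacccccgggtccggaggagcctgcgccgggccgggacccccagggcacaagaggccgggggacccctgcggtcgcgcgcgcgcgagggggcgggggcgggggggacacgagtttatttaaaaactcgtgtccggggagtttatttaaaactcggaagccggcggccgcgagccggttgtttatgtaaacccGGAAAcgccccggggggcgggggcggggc
ACP5 start 3: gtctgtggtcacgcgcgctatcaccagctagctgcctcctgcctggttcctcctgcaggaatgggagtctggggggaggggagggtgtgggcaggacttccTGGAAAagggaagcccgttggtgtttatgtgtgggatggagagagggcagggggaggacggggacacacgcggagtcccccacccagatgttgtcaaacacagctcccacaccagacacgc
The core GGAAA was found in 5 of the 10 windows, against 55.6% of all 35116 promoter windows of that length. The window of TNFRSF11A held none, and that of the third start of MITF held 2 matches. Any link between these motifs and the PMA differences was not tested. The longer TGGAAA was in 2 of the 10, against 18%. A further ACP5 window, at chr19:11577809-11577838 (minus strand), held the E-box CACGTG, a form that MITF is known to bind; capitals mark it, and all 250 bases of that window lie in annotated exons.
ACP5 start 4: gaggctgctgcaCACGTGtgcccagatcct
CACGTG was in 1 of the 10 windows and in 6.34% of all windows, the M-box core CATGTG in 1 and in 9.42%, and the PU.1-type GAGGAA in 3 (all of 1 gene) and in 23.6%. The AP-1 motif TGANTCA matched none of the 10 and 6.57% of all windows. These matches are letters in a window, not measured binding, and several of these motifs are common in any promoter.

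Expected counts summed to between 44430292 and 89950886 per library. Levels are given as TPM (the share of transcripts, corrected for length, so that genes can be set side by side) and, within a gene, as CPM (counts scaled to the library total). Mitochondrial transcripts took 2.551% to 3.937% of counts in the 4 libraries without PMA, 9.61% (replicate 1) and 4.529% (replicate 2) after PMA, and 8.322% and 4.941% after PMA with Ceefourin 2; their part in the results was not tested. Of 14 megakaryocyte markers, 13 were tested, and 2 of these, PPBP and VWF, passed the low-count filter only through libraries with PMA, so they had to differ. The other 11 all rose after PMA (27.9% of all tested genes rose), and the list's summed level spanned 700.0 to 724 TPM in untreated and 1732 to 1939 TPM in PMA libraries. PF4, a platelet chemokine, was listed at 0 in both PMA libraries. Monocyte and macrophage markers (18 genes) summed to 221 to 222 TPM in untreated, 433 to 484 in PMA, 387 to 427 in PMA plus Ceefourin 2 and 180.0 to 196 in Ceefourin 2. That list is dominated by the lysosomal protein CD68, at a mean of 164 TPM in untreated and 416 TPM in PMA cells. MARCO, CD163 and C1QB were at 0 in all 4 groups, and CD14 was at a mean of 0.19 TPM in untreated and 0.22 in PMA cells. By edgeR 5 of its 10 tested genes rose after PMA and 2 fell. The 5 were CD68, the complement receptor gene VSIG4 (0.06 and 0.04 TPM in untreated, 7.47 and 8.94 in PMA), the integrin gene ITGAX (0.15 and 0.29, then 3.56 and 3.97), the Fc receptor gene FCGR1A (0.71 and 0.77, then 6.61 and 6.26) and CSF1R (0 and 0.02, then 0.31 and 0.49), of which VSIG4 and CSF1R passed the filter only through libraries with PMA. The integrin gene ITGAM fell, from 23.25 and 17.52 TPM to 1.07 and 0.83, as did LYZ. The part of monocyte-type RNA in the results was not tested. Of 8 osteoblast and stroma markers 1 of 5 tested rose, the collagen gene COL1A1. It went from 0.12 and 0.12 TPM in untreated to 14.55 and 8.85 in PMA (log2 fold change 7.73, SE 0.365, edgeR adjusted p = 3.38e-06). Of 6 lymphoid markers 0 of 2 tested changed.

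**Figure D1:**
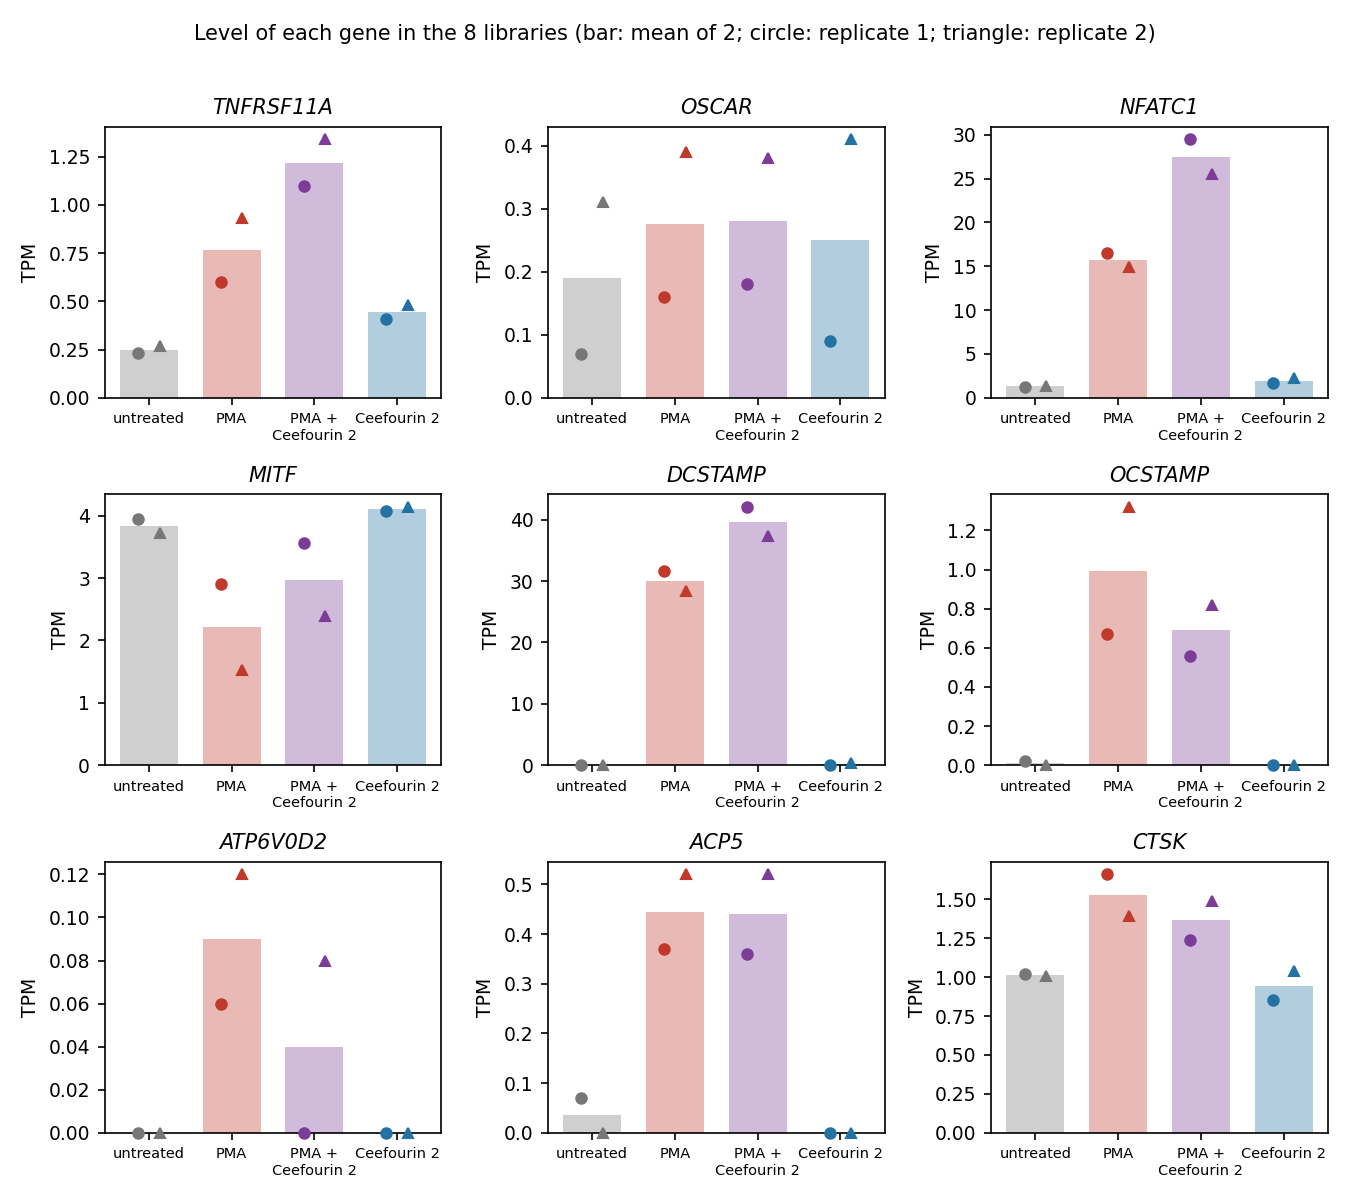
Level of each gene (TPM, linear axis, own scale per panel) in the 8 libraries, with bars for the mean of 2 libraries, circles for replicate 1 and triangles for replicate 2. DCSTAMP and NFATC1 reach 42.07 and 29.46 TPM with PMA, the other 7 genes stay below 5 TPM, and in OSCAR replicate 2 lies above replicate 1 in every group.

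Among the receptors, TNFRSF11A, which encodes RANK, was present at a low level in all libraries. Untreated cells held 0.23 and 0.27 TPM (replicate 1 and replicate 2, the order used throughout), PMA cells 0.60 and 0.93, cells with both agents 1.10 and 1.34, and Ceefourin 2 cells 0.41 and 0.48. No 2 groups overlapped in this gene, and the order was untreated, Ceefourin 2, PMA, PMA plus Ceefourin 2. The mean CPM in PMA was 4.19 times that in untreated cells. The step from Ceefourin 2 to PMA plus Ceefourin 2 was 1.95 on the log2 scale (SE 0.238, edgeR adjusted p = 0.000293). It compares the 4 libraries outside the PMA against untreated contrast, but filter, scaling and spread came from all 8 libraries. Earlier results of these data were known when the genes were chosen, so this p is not independent support. Only the dose of Ceefourin 2 with PMA is stated, so the doses may differ in this step. The position of TNFRSF11A is chr18:62325287-62391292 (plus strand). Its ligand gene TNFSF11 was at 0 TPM in all 8 libraries, and TNFRSF11B, the decoy receptor that captures RANKL, did not exceed 0.06 TPM in any.

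OSCAR, a collagen receptor that gives the co-stimulatory signal, was low and did not separate the groups. Untreated cells held 0.07 and 0.31 TPM, PMA cells 0.16 and 0.39, cells with both agents 0.18 and 0.38, and Ceefourin 2 cells 0.09 and 0.41. Replicate 2 was above replicate 1 in all 4 groups, by 0.753 to 1.52 on the log2 CPM scale, a pattern that 23% of all tested genes share. PMA plus Ceefourin 2 exceeded Ceefourin 2 by 0.74 on the log2 scale (SE 0.778, edgeR adjusted p = 0.458), so no difference was detectable at 30 to 67 counts per group. It maps to chr19:54094668-54102692 (minus strand).

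Of the adaptors that OSCAR-type receptors need, FCER1G was far above OSCAR in all groups, and TYROBP was so only with PMA. FCER1G was at 45.68 and 56.80 TPM in untreated and 300.93 and 341.22 in PMA, a rise of 2.88 on the log2 scale (SE 0.178, edgeR adjusted p = 1.08e-05). Its mean TPM in PMA cells was 1170 times that of OSCAR. TYROBP, the adaptor also called DAP12, was at 0.45 and 0.72 TPM in untreated and 19.84 and 22.82 in PMA, a rise of 5.34 (SE 0.299, edgeR adjusted p = 6.98e-06). It was lower when Ceefourin 2 was added to PMA, at 9.41 and 8.78 TPM.

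Of the factors, NFATC1 was low without PMA and highest with PMA plus Ceefourin 2. Untreated cells held 1.28 and 1.39 TPM, PMA cells 16.48 and 14.95, cells with both agents 29.46 and 25.54, and Ceefourin 2 cells 1.70 and 2.22. No 2 groups overlapped. Mean CPM in PMA was 13.0 times that in untreated cells, and the step from Ceefourin 2 to PMA plus Ceefourin 2 was 4.10 on the log2 scale (SE 0.169, edgeR adjusted p = 2.27e-06). Its position is chr18:79395856-79529325 (plus strand).

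The family member NFATC3 was more abundant. It was at 34.87 and 26.32 TPM in untreated and 32.72 and 39.98 in PMA (log2 fold change 0.54, SE 0.146, edgeR adjusted p = 0.0149). Its mean TPM was 22.9 times that of NFATC1 in untreated cells, 2.31 times in PMA and 1.1 times in PMA plus Ceefourin 2. NFATC2 did not exceed 0.26 TPM in any library. It passed the filter only through libraries with PMA, so it had to differ after PMA and no test of it is given. NFATC4 did not exceed 0.01 TPM.

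MITF, a basic helix-loop-helix factor that also drives melanocyte and lysosomal genes, was the member that was lower with PMA. Untreated cells held 3.95 and 3.72 TPM, PMA cells 2.90 and 1.53, cells with both agents 3.56 and 2.39, and Ceefourin 2 cells 4.08 and 4.14. In TPM the libraries with PMA were all below those without it, though in CPM replicate 1 of PMA plus Ceefourin 2 (11.98) exceeded both untreated libraries (11.1 and 10.96), and the 2 libraries of each PMA group lay far apart, replicate 1 above replicate 2. Mean CPM in PMA was 0.721 times that in untreated cells. Between PMA plus Ceefourin 2 and Ceefourin 2 the log2 fold change was -0.30 (SE 0.241, edgeR adjusted p = 0.33). It was -0.59 (edgeR adjusted p = 0.0349) without replicate 1 of PMA and of PMA plus Ceefourin 2, the libraries with the highest mitochondrial share. That exclusion was chosen after the data were seen; it leaves 1 library in each PMA group, assumed to vary like the 4 libraries without PMA, from which the spread is taken. It maps to chr3:69739435-69968337 (plus strand).

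No relative of MITF was called lower after PMA by edgeR. TFE3 was at 16.25 and 16.57 TPM in untreated and 22.67 and 22.75 in PMA (log2 fold change 0.69, SE 0.103, edgeR adjusted p = 0.000807). TFEB rose by 1.10 (SE 0.37, edgeR adjusted p = 0.0359). TFEC was at 11.88 and 8.32 TPM in untreated and 12.08 and 11.57 in PMA (log2 fold change 0.34, SE 0.201, edgeR adjusted p = 0.186).

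DCSTAMP, the membrane protein required for osteoclast precursors to fuse, went from no counts to the highest level of the 9. Both untreated libraries held 0 counts. PMA cells held 1553 and 987 counts, at 31.60 and 28.33 TPM, and PMA plus Ceefourin 2 held 1563 and 2422 counts, at 42.07 and 37.32 TPM. Ceefourin 2 alone gave 0 and 7 counts, at 0 and 0.34 TPM. Mean CPM in PMA was 869 times a floor of 3 counts over the untreated group, and the 95% exact binomial interval of the ratio began at 715. PMA plus Ceefourin 2 was 545 times Ceefourin 2, with a 95% exact binomial interval of 264 to 1360 that covers counting error only. Its position is chr8:104339087-104356689 (plus strand).

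OCSTAMP, a related transmembrane protein that works beside DCSTAMP in fusion, showed the same on and off split at a lower level. Untreated cells held 1 and 0 counts (0.02 and 0 TPM), PMA cells 67 and 103 (0.67 and 1.32 TPM), cells with both agents 47 and 119 (0.56 and 0.82 TPM), and Ceefourin 2 cells none. The PMA groups overlapped each other and stood apart from the rest. The ratio of PMA to untreated was 177, with a 95% exact binomial interval of 31.3 to 7020 from a single count. PMA plus Ceefourin 2 was 50.4 times the floor in Ceefourin 2 cells, and the 95% exact binomial interval began at 42.6. Mean TPM of DCSTAMP was 30.1 times that of OCSTAMP in PMA and 57.5 times in PMA plus Ceefourin 2. It maps to chr20:46540946-46550574 (minus strand).

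ATP6V0D2, the d2 subunit of the V-ATPase proton pump that osteoclasts carry in their resorbing membrane, stayed at the limit of detection. It had 0 counts in all 4 libraries without PMA, 3 and 11 counts in PMA (0.06 and 0.12 TPM), and 0 and 13 counts in PMA plus Ceefourin 2 (0 and 0.08 TPM). Mean CPM in PMA was 5.26 times the floor in untreated cells. The exact binomial interval of the ratio, which covers counting error only, began at 3.45. The widely expressed d1 subunit, ATP6V0D1, was at 72.58 and 73.12 TPM in PMA, a mean 809 times that of ATP6V0D2. Its position is chr8:85987323-86154228 (plus strand).

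The same imbalance held for the a subunits of the pump. TCIRG1, which encodes the a3 form that osteoclasts need to acidify bone, was at 0.04 and 0.06 TPM in untreated and 0.29 and 0.27 in PMA. ATP6V0A1 was at 65.03 and 51.62 TPM in untreated and 174.58 and 162.33 in PMA, a rise of 1.76 on the log2 scale (SE 0.113, edgeR adjusted p = 1.22e-05) and a mean 602 times that of TCIRG1.

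ACP5 encodes tartrate-resistant acid phosphatase, the stain by which osteoclasts are recognised. Untreated cells held 1 and 0 counts (0.07 and 0 TPM), PMA cells 19 and 18 (0.37 and 0.52 TPM), cells with both agents 19 and 36 (0.36 and 0.52 TPM), and Ceefourin 2 cells none. All libraries with PMA were above all without, at a level under 1 TPM. The ratio of PMA to untreated was 38.4, with a 95% exact binomial interval of 6.48 to 1560. PMA plus Ceefourin 2 was 17.3 times the floor in Ceefourin 2 cells, and the 95% exact binomial interval began at 13.8. It maps to chr19:11574660-11579008 (minus strand).

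CTSK encodes cathepsin K, the collagen-cutting protease of osteoclasts, and it lay between 0.85 and 1.66 TPM in all libraries. Untreated cells held 1.02 and 1.01 TPM, PMA cells 1.66 and 1.39, cells with both agents 1.24 and 1.49, and Ceefourin 2 cells 0.85 and 1.04. Libraries with PMA were above those without. Mean CPM in PMA was 1.77 times that in untreated cells. The step from Ceefourin 2 to PMA plus Ceefourin 2 was 0.85 on the log2 scale (SE 0.25, edgeR adjusted p = 0.0213). That call did not hold without PMA plus Ceefourin 2 replicate 1 (adjusted p = 0.0777), PMA plus Ceefourin 2 replicate 2 (0.067) or Ceefourin 2 replicate 1 (0.128). The log2 fold change stayed between 0.63 and 1.08 in the fits without 1 library. The call also did not hold without replicate 1 of both PMA groups (edgeR adjusted p = 0.0962, on 1 library per PMA group), or on log2(TPM + 1) and log2(TPM + 0.1) with limma (adjusted p = 0.0793 and 0.118). Its position is chr1:150796208-150808323 (minus strand).

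Other cathepsins were far more abundant than CTSK. CTSB was at 183.96 and 183.01 TPM in untreated and 479.84 and 483.15 in PMA (log2 fold change 1.52, SE 0.0881, edgeR adjusted p = 8.04e-06), a mean 316 times that of CTSK in PMA. CTSL was at 136.58 and 140.49 TPM in untreated and 395.54 and 355.83 in PMA (log2 fold change 1.75, SE 0.104, edgeR adjusted p = 8.83e-06).

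**Figure D2:**
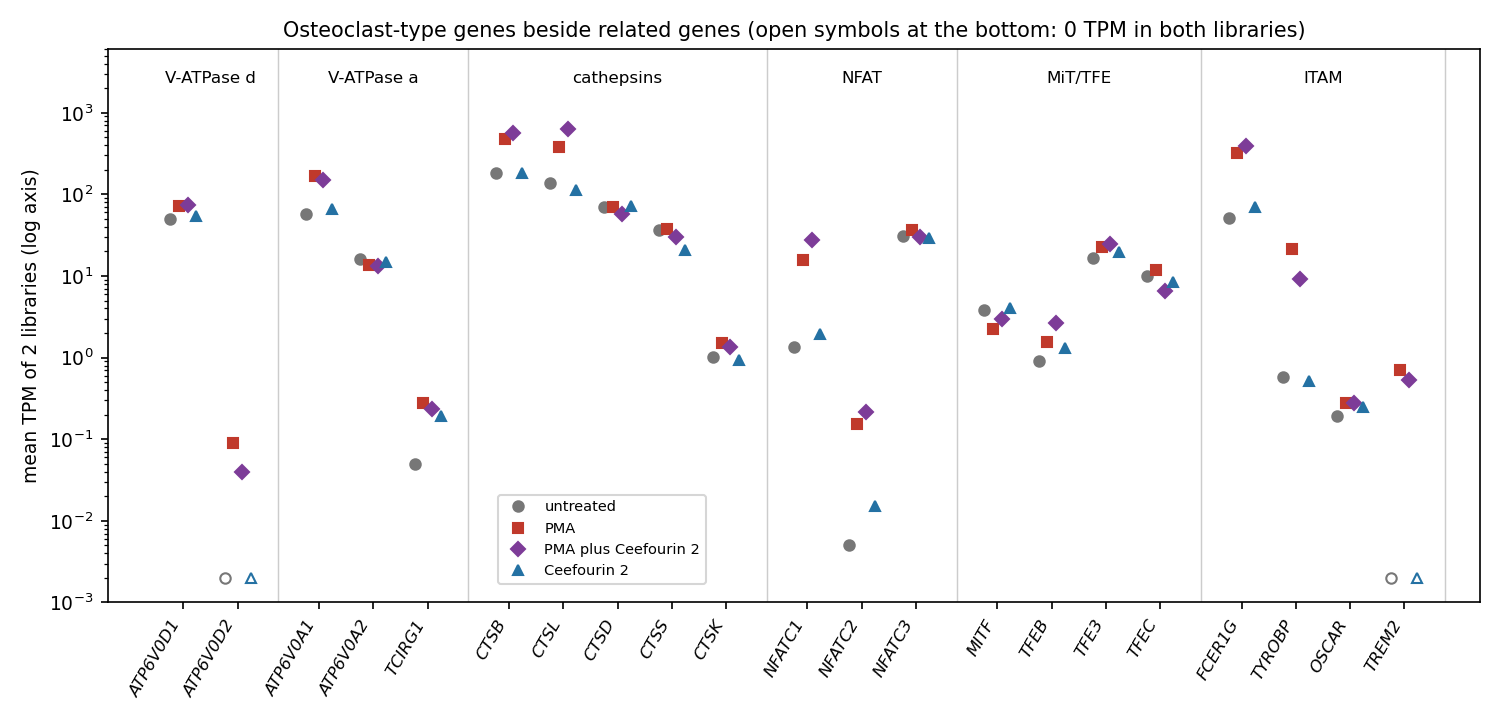
Mean TPM of 2 libraries per group (log axis) for members beside related genes, one symbol per group, with open symbols at the bottom for 0 TPM in both libraries. ATP6V0D2, TCIRG1, CTSK and OSCAR lie far below ATP6V0D1, ATP6V0A1, CTSB and FCER1G, while NFATC1 approaches NFATC3 in the libraries with PMA.

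Placed in order of mean TPM in PMA cells (n = 2), DCSTAMP stood at 29.96 ± 2.31 (SD) and NFATC1 at 15.7 ± 1.08, above 78% and 66% of all tested genes. MITF followed at 2.22 ± 0.969 and CTSK at 1.53 ± 0.191, whose libraries overlapped. OCSTAMP at 0.995 ± 0.46 and TNFRSF11A at 0.765 ± 0.233 overlapped as well, as did ACP5 at 0.445 ± 0.106 and OSCAR at 0.275 ± 0.163. ATP6V0D2 was last at 0.09 ± 0.0424. In untreated cells the order was different, with MITF at 3.84 ± 0.163, NFATC1 at 1.34 ± 0.0778 and CTSK at 1.02 ± 0.00707, each apart from the next, then TNFRSF11A at 0.25 ± 0.0283 and OSCAR at 0.19 ± 0.17, which overlapped. ACP5 and OCSTAMP were at 0.035 and 0.01 TPM there, on 1 count each.

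Between PMA and untreated cells, CPM did not overlap and was higher for TNFRSF11A, NFATC1, DCSTAMP, OCSTAMP, ATP6V0D2, ACP5 and CTSK, lower for MITF, and overlapping for OSCAR. Of all tested genes, 39.1% were higher and 38.7% lower by the same measure, and nothing is read from the members' count, since this contrast chose them. Without replicate 1 of both PMA groups, the libraries with the highest mitochondrial share, the log2 fold change of NFATC1 was 3.64 (3.70 with all), of TNFRSF11A 2.26 (2.06), of CTSK 0.63 (0.83) and of MITF -0.84 (-0.47). In the 4 libraries with Ceefourin 2, where 28% of tested genes rose with PMA and 25.6% fell (39.4% were higher and 36.8% lower without overlap), TNFRSF11A, NFATC1 and CTSK rose, and MITF and OSCAR did not pass the test. DCSTAMP, OCSTAMP and ACP5 passed the low-count filter only through libraries with PMA, so they had to differ and are described by their counts alone.

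Patterns across the 8 libraries were shared with many other genes. By Pearson's r of log2 CPM over 13562 protein-coding genes, those nearest to NFATC1 were AGPAT1 (r = 0.999) and ETS1 (0.9988), and 729 genes exceeded 0.98. Nearest to DCSTAMP were ATF6B (0.9985) and COPB1 (0.9983), with 655 genes above 0.98. These values describe a split of the libraries by PMA that all the genes share. For the lower genes the nearest were EMSY (0.998) and ZSWIM6 (0.9954) to TNFRSF11A, MED7 (0.9987) and KLF10 (0.9982) to ACP5, and ST3GAL6 (0.9968) to OCSTAMP after the readthrough gene LY6G6F-LY6G6D (0.9995), whose counts are uncertain because it overlaps its parts. OSCAR, MITF and CTSK had few close neighbours: IAH1 (0.9886) and MICU2 (0.9715) for OSCAR, XKR6 (0.9788) and ITGAL (0.9655) for MITF, and ASIC3 (0.9844) among those for CTSK, with 1, 0 and 2 genes above 0.98.

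Adding Ceefourin 2 to PMA raised 1 of the 8 tested members, NFATC1, where 0.918% of all tested genes rose and 0.913% fell. NFATC1 went from 16.48 and 14.95 TPM to 29.46 and 25.54, 0.85 higher on the log2 scale (SE 0.146, edgeR adjusted p = 0.0343). The difference ranged from 0.79 to 0.92 over the fits without 1 library. The call did not hold without PMA replicate 1 (adjusted p = 0.13) or 2 (0.246), or without PMA plus Ceefourin 2 replicate 1 (0.194) or 2 (0.15). Without replicate 1 of both PMA groups it was 0.89 (edgeR adjusted p = 0.532), from 1 library against 1 with the spread taken from cells without PMA. With limma on log2(TPM + 1) it was 0.77 (adjusted p = 0.0588). These libraries include the PMA libraries of the PMA against untreated comparison.

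The other members did not pass the test in this comparison. TNFRSF11A was higher by 0.58 (SE 0.225, edgeR adjusted p = 0.304) without overlap, and DCSTAMP by 0.36 (SE 0.269, edgeR adjusted p = 0.663) without overlap. With NFATC1 these were 3 members whose libraries were all higher, against 23.5% of tested genes higher and 21.9% lower. OCSTAMP was at -0.47 (SE 0.43), CTSK at -0.19 (SE 0.241), ACP5 at 0.22 (SE 0.451), MITF at 0.33 (SE 0.243) and OSCAR at 0.37 (SE 0.774), all with overlapping libraries and edgeR adjusted p between 0.646 and 0.912. ATP6V0D2, at 0 to 13 counts per library, was not tested.

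Ceefourin 2 without PMA changed none of the 8 tested members by edgeR, where 0.959% of tested genes rose and 0.722% fell. DCSTAMP, OCSTAMP and ACP5, at 0 to 7 counts per group, could hardly be called here, so the statement is about the other 5. An unadjusted p under 0.05 was reached by 2, TNFRSF11A (log2 fold change 0.70, SE 0.26, adjusted p = 0.286) and NFATC1 (0.44, SE 0.169, adjusted p = 0.297), and DESeq2 called 0. TNFRSF11A, NFATC1 and MITF were higher without overlap, against 19.8% of tested genes higher and 20.9% lower; MITF stood at 0.16 (SE 0.24, edgeR adjusted p = 0.859). CTSK was at -0.21 (SE 0.257) and OSCAR at 0.12 (SE 0.833), both with overlap. DCSTAMP had 7 counts with Ceefourin 2, all in replicate 2, and 0 in untreated cells. That is 2.06 times the floor in untreated cells and rests on replicate 2 alone. The exact binomial interval of the ratio began at 1.25. OCSTAMP and ACP5 had 1 count each in untreated cells and 0 with Ceefourin 2, so no fold is given. These libraries include the untreated libraries of the PMA against untreated comparison.

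Whether the Ceefourin 2 difference was the same with and without PMA was tested as an interaction, in which 0.0116% of all tested genes were called. The dose of Ceefourin 2 alone is not stated. If the doses differed, dose and PMA cannot be told apart here. By edgeR 0 members passed, 0 had an unadjusted p under 0.05, and DESeq2 called 0. For DCSTAMP, OCSTAMP and ACP5, at 0 to 7 counts per group without PMA, the SE was 2.27, 2.00 and 1.76, so a difference could hardly be detected in them. For NFATC1 the difference with PMA exceeded that without by 0.41 (SE 0.223, adjusted p = 0.849), and for TNFRSF11A it was -0.12 (SE 0.341, adjusted p = 1).

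The Ceefourin 2 difference averaged over cells with and without PMA was added after the data were seen, and uses all 8 libraries. It takes both Ceefourin 2 groups together, though a dose is stated only for the group with PMA. NFATC1 was higher by 0.65 on the log2 scale (SE 0.112, edgeR adjusted p = 0.0197), in a contrast that called 4.75% of all tested genes (2.63% higher and 2.13% lower). TNFRSF11A was higher by 0.64 (SE 0.172, edgeR adjusted p = 0.0841) and did not pass. Its adjusted p was 0.0263 with the replicate block, 0.0463 with DESeq2 and 0.0144 with no filter. In the 8 fits without 1 library it was not called either, with differences between 0.52 and 0.75. For both genes each library with Ceefourin 2 was above each library without it, within cells with PMA and within cells without. Of all tested genes, 23.5% were higher without overlap in cells with PMA and 19.8% in cells without. The share higher in both was not counted. These are the libraries of the averaged test, so the order adds no separate support. The NFATC1 call did not hold without untreated replicate 1 (edgeR adjusted p = 0.0679), without PMA replicate 1 (0.0543) or 2 (0.08), or without PMA plus Ceefourin 2 replicate 1 (0.0754) or 2 (0.0605). Without replicate 1 of both PMA groups it was at 0.67 (edgeR adjusted p = 0.202), with 1 library in each PMA group.

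**Figure D3:**
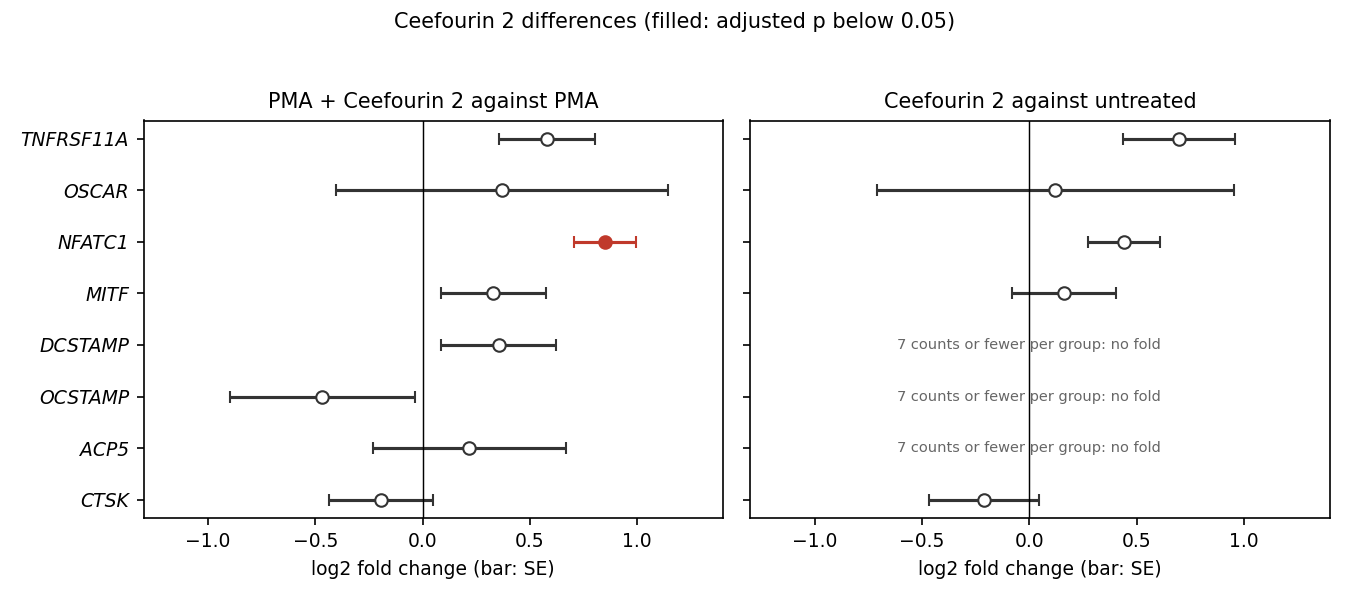
Log2 fold change of each tested member with Ceefourin 2 (points, with bars for the SE) in cells with PMA (left) and without (right); filled points passed an edgeR adjusted p below 0.05. NFATC1 at 0.85 on the left is the filled point, and TNFRSF11A is at 0.58 on the left and 0.70 on the right.

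Other genes of the osteoclast pathways were counted from 7 lists that leave out the 9 members and hold 181 genes, 159 of them tested. After PMA 90 of the 159 rose and 29 fell, so 74.8% changed, beside 53.6% of all tested genes (27.9% higher and 25.7% lower). Of the 159, 8 passed the low-count filter only through libraries with PMA (TREM2, CSF1R, NFATC2, BATF, CD9, CHI3L1, SPP1 and MMP9) and 1 only through libraries without it, so these had to differ. Among the other 150, 84 rose and 28 fell (74.7%), beside 52.7% of the 16044 genes left when the same rule is put to all. Their median log2 fold change was 0.55, beside -0.00201 over all tested genes. With limma on log2(TPM + 1), which moved the median of all genes to -0.14 and their calls to 3197 higher and 5831 lower, the lists held 68 higher and 32 lower. Without replicate 1 of both PMA groups they held 74 higher and 19 lower, in a fit with 1 library in each PMA group. The lists share ITGB3 with the megakaryocyte markers, genes such as CSF1R and CCR2 with the monocyte markers, and IBSP with the osteoblast markers.

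Genes for attachment and resorption had the largest median of the 7 lists, 1.42, with 20 of 27 higher and 2 lower after PMA. SPP1 and MMP9 passed the filter only through libraries with PMA. Without them 18 of 25 were higher and 2 lower, beside 26.4% higher and 26.4% lower of all genes under the same rule. The medians of the lists include such genes. ITGB3, the integrin beta-3 chain used by both platelets and osteoclasts, went from 16.58 and 14.12 TPM to 271.40 and 273.36, a rise of 4.40 (SE 0.103, edgeR adjusted p = 5.99e-07). Its partner ITGAV, the alpha-v chain of the osteoclast vitronectin receptor, rose by 2.85 (SE 0.108, adjusted p = 1.82e-06), and the adhesion protein VCL by 2.43 (SE 0.105, adjusted p = 2.48e-06). CALCR, the calcitonin receptor of mature osteoclasts, was at 0 TPM in all libraries.

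Among co-stimulation and CSF1 receptor genes 12 of 17 rose and 2 fell, with a median of 0.68. Without TREM2 and CSF1R, which passed the filter only through libraries with PMA, 10 of 15 rose and 2 fell. Besides FCER1G and TYROBP, VAV3, a guanine nucleotide exchange factor, rose by 1.57 (SE 0.107, edgeR adjusted p = 1.71e-05), and PLCG1 fell by 1.61 (SE 0.12, adjusted p = 2.49e-05). Cell fusion genes split, with 12 of 23 higher and 7 lower (median 0.39), and 8 and 7 with limma on log2(TPM + 1). Without the genes that passed the filter on 1 side only, 11 of 20 were higher and 6 lower by edgeR. The tetraspanin CD9, 1 of the genes that passed the filter only through libraries with PMA, went from 0.15 and 0.09 TPM to 22.99 and 19.99, the hyaluronan receptor CD44 from 217.96 and 206.12 to 2159.09 and 2011.69, and the chemokine CCL2 rose by 6.22 (SE 0.161, edgeR adjusted p = 8.51e-07).

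The proton pump list held 13 of 20 higher and 3 lower (median 0.47), with ATP6V1D up by 1.46 (SE 0.108, edgeR adjusted p = 2.49e-05). Transcription factors and repressors held 11 of 27 higher and 7 lower (median 0.60), or 11 of 26 and 7 without BATF, which passed the filter only through libraries with PMA. NR4A1 rose by 4.07 (SE 0.173, edgeR adjusted p = 2.41e-06), JUNB by 2.58 (SE 0.162, adjusted p = 1.17e-05) and ID2, a repressor, by 2.98 (SE 0.172, adjusted p = 7.79e-06). Calcineurin and NFAT genes held 9 of 20 higher and 4 lower (median 0.31), or 8 of 19 and 4 without NFATC2. The calcium sensor STIM1 was up by 1.08 (SE 0.0784, edgeR adjusted p = 2.21e-05) and the calcium release channel ITPR3 down, at -2.35 (SE 0.221, adjusted p = 7.79e-05). RANK signalling genes held 13 of 25 higher and 4 lower (median 0.31), but 7 and 7 with limma on log2(TPM + 1), so their balance depends on the scaling. SQSTM1, the p62 scaffold that binds TRAF6, rose by 2.53 (SE 0.142, edgeR adjusted p = 7.05e-06).

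**Figure D4:**
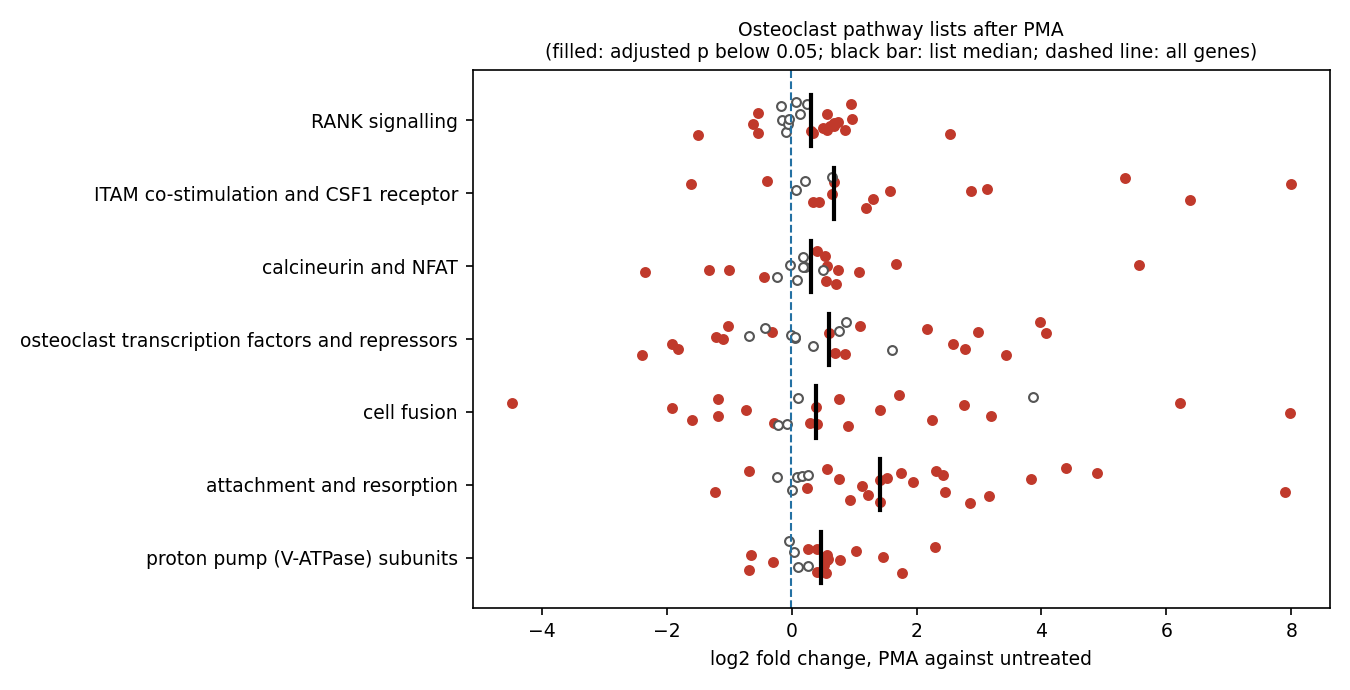
Log2 fold change after PMA of the tested genes of the 7 osteoclast pathway lists (members left out), 1 point per gene; filled points passed an edgeR adjusted p below 0.05, black bars mark list medians and the dashed line the median of all tested genes. Attachment and resorption genes have the largest median, 1.42, and RANK signalling and the calcineurin and NFAT list the smallest. Genes that passed the low-count filter only with PMA or only without it are included.

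Adding Ceefourin 2 to PMA changed 9 of the 159 pathway genes (5.66%, beside 1.83% of all tested genes), 5 higher and 4 lower. The 4 that fell were SPI1, the myeloid factor PU.1, at -1.26 on the log2 scale (SE 0.182, edgeR adjusted p = 0.0181), TYROBP at -1.20 (SE 0.219, 0.0422), and the kinases TEC at -1.11 (SE 0.111, 0.00501) and SYK at -0.71 (SE 0.102, 0.0181). SPI1 went from 44.32 and 60.03 TPM in PMA to 18.77 and 23.48. TYROBP, SYK and TEC belong to the ITAM route, so 3 of its 17 tested genes fell and 0 rose. Beside them, 2 of the 10 tested monocyte and macrophage markers fell and 0 rose: VSIG4 at -1.92 (SE 0.191, 0.00501) and ITGAX at -1.11 (SE 0.195, 0.0353); the part of monocyte-type RNA in these falls was not tested. Those that rose were CD9 (1.66, SE 0.157, 0.00412), CEBPA (1.48, SE 0.284, 0.0483), CTSL (0.78, SE 0.101, 0.0139), STIM1 (0.48, SE 0.0774, 0.0273) and ANXA5 (0.44, SE 0.0805, 0.0405). The count depends on the libraries and the fit. It was 16 and 12 with no filter, 19 and 16 with the replicate block and 11 and 11 with DESeq2. Without 1 library it was between 0 and 4 higher and between 0 and 5 lower, reaching 0 and 0 without PMA replicate 2 or without PMA plus Ceefourin 2 replicate 1.

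With Ceefourin 2 alone 10 of the 159 changed (6.29%, beside 1.68%), 6 higher and 4 lower. ITGB3 rose by 1.31 (SE 0.0917, edgeR adjusted p = 0.00151), CEBPA by 1.81 (SE 0.269, 0.0219), BATF3 by 1.09 (SE 0.157, 0.0193), HOMER3 by 0.94 (SE 0.16, 0.0339), GAB2 by 0.89 (SE 0.135, 0.0228) and CD44 by 0.57 (SE 0.0912, 0.0277). The calcium-binding protein S100A4 was at -1.96 (SE 0.111, 0.000655), the scavenger receptor CD36 at -1.66 (SE 0.204, 0.0121), CTSS at -0.91 (SE 0.105, 0.0109) and the kinase gene PTK2B at -0.86 (SE 0.105, 0.0119). Of the lists, proton pump genes and the ITAM route had 0 genes called by edgeR in this comparison. With PMA added to Ceefourin 2, 82 of the 159 rose and 28 fell (69.2%, beside 53.5% of all tested genes). Without the 9 genes that passed the filter on 1 side only, 74 of 150 rose and 28 fell (68%, beside 52.7%).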

How the data were processed

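Messenger RNA libraries that keep strand were made from MEG-01 cells and sequenced as read pairs, per the labels' protocols. The submitters' processing notes name STAR 2.7, RSEM 1.3.1 and the build hg38; the sources used here do not state the annotation release. The authors deposited each gene's expected count from RSEM, not normalized, per the file headers. TPM values per gene from RSEM were also deposited by the authors.

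Counts were rounded to whole numbers for edgeR 4.0.16 in R 4.3.3: filterByExpr (minimum count 10, which set a cutoff of 0.172 CPM) kept 17314 genes, TMM factors lay between 0.9197 and 1.083, and quasi-likelihood tests ran on 1 fit of 8 libraries with a mean per group. The fit had 4 residual degrees of freedom and a common biological coefficient of variation of 13.6%. Adjusted p-values are Benjamini-Hochberg over all tested genes, called below 0.05, and only called genes are said to rise, fall or change. Each standard error is the size of the log2 fold change over the root of F. SDs rest on 2 libraries. Folds against 0 counts use a floor of 3 counts over the group, and ratios have 95% exact binomial intervals; both cover counting error only. Alternatives used limma 3.58.1, DESeq2 1.42.0, other scaling, no filter, a replicate block and fits without 1 library. The scripts were tested on simulated data.

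The members and lists were chosen with earlier results of these data known. Named list genes are up to 4 called genes of smallest p per list and comparison, or the gene of smallest p, besides stated relatives of members. CTSB, CALCR, COL1A1, the single monocyte markers and the PMA value of CTSL were named after their values were seen. A gene near CTSK by correlation is not reported here. Of 224 list symbols 222 were matched. Positions are from GENCODE 29 on GRCh38. Promoter windows were searched in Python 3.11.15, and bases inside annotated exons were printed only in stretches of 30.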

Additional observations from a re-analysis of the deposited data

How the results depend on the processing

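Of the members, the PMA step in Ceefourin 2 cells kept its direction in every fit run, with TNFRSF11A between 1.71 and 2.15 and NFATC1 between 3.89 and 4.34 on the log2 scale without 1 library. Without replicate 1 of both PMA groups, 1 member (MITF) was called lower there; that fit has 1 library in each PMA group and takes its spread from the groups without PMA. With Ceefourin 2 in PMA cells, members called higher went from 1 to 0 with limma on log2(TPM + 1) or log2(TPM + 0.1) and without replicate 1 of both PMA groups, and lay between 0 and 1 without 1 library. Pathway genes called higher and lower there (5 and 4) were 16 and 12 with no filter, 19 and 16 with the replicate block, 11 and 11 with DESeq2, 3 and 2 with limma on log2(TPM + 0.1), 0 and 0 without replicate 1 of both PMA groups, and between 0 and 4 and between 0 and 5 without 1 library; with only the groups compared, 3 were higher. After PMA the pathway genes called lower were 19 without replicate 1 of both PMA groups, beside 29. The cause of these changes was not tested.

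Differences that were not called changed sign in some fits. With Ceefourin 2 in PMA cells, ACP5 was at -0.00529 and -0.016 on log2(TPM + 1) and log2(TPM + 0.1), and without 1 library OSCAR ranged from -0.28 to 0.91, CTSK from -0.36 to 0.0057 and OCSTAMP from -0.88 to 0.089. With Ceefourin 2 alone, OSCAR ranged from -1.07 to 1.78 and CTSK from -0.45 to 0.0065 without 1 library, and averaged over both, OSCAR from -0.35 to 1.07. For the interaction, CTSK was at -0.0017 with DESeq2 size factors, -0.00104 with DESeq2, and -0.042 and -0.050 on the TPM scales with pseudocounts 1 and 0.1; OSCAR was at -0.059 and -0.20 there, and TNFRSF11A at 0.13 with pseudocount 1. Without 1 library the interaction ranged from -0.21 to 0.25 for CTSK, -0.13 to 0.55 for MITF, -1.42 to 1.44 for OSCAR and -0.36 to 0.096 for TNFRSF11A.

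The labels do not say what a replicate number shares. Differences between replicates 2 and 1 correlated at 0.102 to 0.263 between groups over 17314 genes. With the replicate block NFATC1 with Ceefourin 2 in PMA cells was at 0.85 (edgeR adjusted p = 0.0068), and calls in that comparison over all genes went from 159 higher and 158 lower to 821 and 661. ATP6V0D2, at 14 counts or fewer per group, could not be tested under the filter, DESeq2 gave no adjusted p to OSCAR with Ceefourin 2 or to ACP5 with Ceefourin 2 in PMA cells, and depth limits what can be said of OSCAR and ACP5.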

Other observations

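SPI1 and TYROBP, which are known to act in osteoclast precursors, were lower with Ceefourin 2 in the same PMA libraries in which NFATC1 was higher. SPI1 was at 60.27 and 63.29 TPM in untreated and 36.29 and 39.34 in Ceefourin 2 (log2 fold change -0.72, SE 0.179, edgeR adjusted p = 0.109). The interaction list of pathway genes held 1 call, S100A4, whose Ceefourin 2 difference was higher with PMA than without by 1.68 (SE 0.151, edgeR adjusted p = 0.047); it fell with Ceefourin 2 alone.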
